A study of Mus musculus with 12 samples.

Results

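To determine how the Cyp3a cytochrome P450 genes of mouse liver differ between germ-free and conventionalized animals and between the sexes, the 8 Cyp3a genes listed by name (Cyp3a11, Cyp3a13, Cyp3a16, Cyp3a25, Cyp3a41a, Cyp3a41b, Cyp3a44 and Cyp3a59) were followed through 12 liver RNA sequencing libraries. They are 8 of the 41128 genes in the table, chosen by name. The livers came from C57BL/6 mice aged 6 weeks. Every mouse was kept in a sterile isolator up to weaning on day 21. Germ-free (GF) mice then stayed in the isolator, and conventionalized (CV) mice spent 3 weeks in ordinary cages with soiled bedding from other animals of the facility. There were 4 groups of 3 libraries each, namely GF males, GF females, CV males and CV females, and no group carried a transgene, a deletion or a drug. The composition of the transferred microbes was not measured in these data, and whether cage mates or litters were shared is not stated. The labels do not say that each library is a separate mouse, so the p-values measure the spread between these libraries.

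CYP3A enzymes sit in the membrane of the endoplasmic reticulum and oxidize steroids, bile acids and a large part of all drugs, using electrons that cytochrome P450 reductase (Por) takes from NADPH. Their transcription in hepatocytes is induced when the nuclear receptors PXR (Nr1i2) and CAR (Nr1i3), as partners of RXR, bind foreign compounds or bile acids. In the mouse liver Cyp3a11 is the main drug-inducible member, and Cyp3a41 and Cyp3a44 are known as female-specific genes under the control of the sex-dependent pattern of growth hormone release. Cyp3a16 is known as a form of fetal and neonatal liver, and Cyp3a13 is found in gut as well as liver. The role of Cyp3a59 is the least described.

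Of the 8 genes, 7 lie together on chromosome 5 of build GRCm38 (GENCODE release 21), between the start of Cyp3a16 at 145436309 and the end of Cyp3a59 at 146113287. Cyp3a13 lies apart on the same chromosome, at 137892932 to 137921619. Cyp3a59 is on the plus strand and the others are on the minus strand. The bases just upstream of the annotated start are shown for 5 members, because these fall into the pairs that the expression values below set apart. Cyp3a11 was higher in CV livers, Cyp3a41a and Cyp3a44 were nearly confined to libraries labelled female, and Cyp3a25 and Cyp3a59 did not pass the test over both sexes. The sequences are RefSeq windows on build GRCm38.p6, written 5′ to 3′ on the strand of the gene, with the letters TATAAA (the core of a TATA box) and AGGTCA (the unit that nuclear receptors bind) in capitals, the latter also as its reverse complement TGACCT.
Cyp3a11: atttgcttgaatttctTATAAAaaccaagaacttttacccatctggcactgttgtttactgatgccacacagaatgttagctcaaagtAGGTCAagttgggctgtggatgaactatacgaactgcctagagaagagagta
Cyp3a41a: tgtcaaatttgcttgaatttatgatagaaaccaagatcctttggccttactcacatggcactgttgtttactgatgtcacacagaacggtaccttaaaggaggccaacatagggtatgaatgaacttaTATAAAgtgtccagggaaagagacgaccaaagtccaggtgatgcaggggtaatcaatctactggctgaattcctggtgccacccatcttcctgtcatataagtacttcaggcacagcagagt
Cyp3a44: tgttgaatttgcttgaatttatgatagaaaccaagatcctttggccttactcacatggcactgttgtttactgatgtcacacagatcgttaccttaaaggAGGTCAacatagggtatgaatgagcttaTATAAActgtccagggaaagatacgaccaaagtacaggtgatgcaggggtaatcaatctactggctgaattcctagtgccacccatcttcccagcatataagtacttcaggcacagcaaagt
Cyp3a25: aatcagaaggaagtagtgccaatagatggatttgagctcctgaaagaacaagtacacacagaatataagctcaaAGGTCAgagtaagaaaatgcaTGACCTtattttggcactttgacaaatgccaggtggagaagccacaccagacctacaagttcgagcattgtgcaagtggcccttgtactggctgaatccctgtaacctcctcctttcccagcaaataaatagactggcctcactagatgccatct
Cyp3a59: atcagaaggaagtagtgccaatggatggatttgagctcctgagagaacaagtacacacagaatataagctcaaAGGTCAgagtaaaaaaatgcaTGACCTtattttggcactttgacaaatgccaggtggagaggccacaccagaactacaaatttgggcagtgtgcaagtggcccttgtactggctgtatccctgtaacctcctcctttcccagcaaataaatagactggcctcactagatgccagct
The Cyp3a11 stretch ends before the earlier start that GENCODE gives this gene, and so holds 140 bases at chr5:145879965-145880104. The other stretches are chr5:145720137-145720386 for Cyp3a41a, chr5:145805875-145806124 for Cyp3a44, chr5:146009619-146009868 for Cyp3a25 and chr5:146079008-146079256 for Cyp3a59.

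TATAAA was found in 5 of the 8 upstream windows. It began at position -122 from the RefSeq start in Cyp3a41a, Cyp3a41b and Cyp3a44, at -126 in Cyp3a16 and at -234 in Cyp3a11. Of 32851 windows of the same length, 12.4% held it. The windows of Cyp3a41a, Cyp3a41b, Cyp3a44 and Cyp3a16 were 93.9% to 99.6% identical to each other, so their hits are not separate cases. Whether these letters act as a TATA box at these positions was not tested. AGGTCA on either strand was found in 4 members, once in Cyp3a11 at -162 and once in Cyp3a44 at -150, and as a facing pair in Cyp3a25 and Cyp3a59. Of all windows, 14.0% held it, and the windows of Cyp3a25 and Cyp3a59 were 95.6% identical to each other. At the place where Cyp3a44 has AGGTCA, the Cyp3a41a window does not hold these letters. TTCNNNGAA, the palindrome that STAT5 binds, was in 0 of the 8 windows and in 7.02% of all windows. None of the 3 letter patterns overlapped another one within a printed stretch.

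The members fell into pairs by sequence. Cyp3a41a and Cyp3a41b were the same at 249 of 250 upstream bases and at 2058 of 2060 aligned transcript bases. Cyp3a25 and Cyp3a59 were 95.6% identical upstream and 97.0% identical over the transcript. The Cyp3a44 and Cyp3a41a transcripts were the same at 1864 of 1962 aligned bases, and the Cyp3a11 transcript was 94.5% identical to Cyp3a41a, although its upstream window was only 82.9% identical. Cyp3a13 stood apart, with transcript identities of 76.9% to 80.1%.

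**Figure D1:**
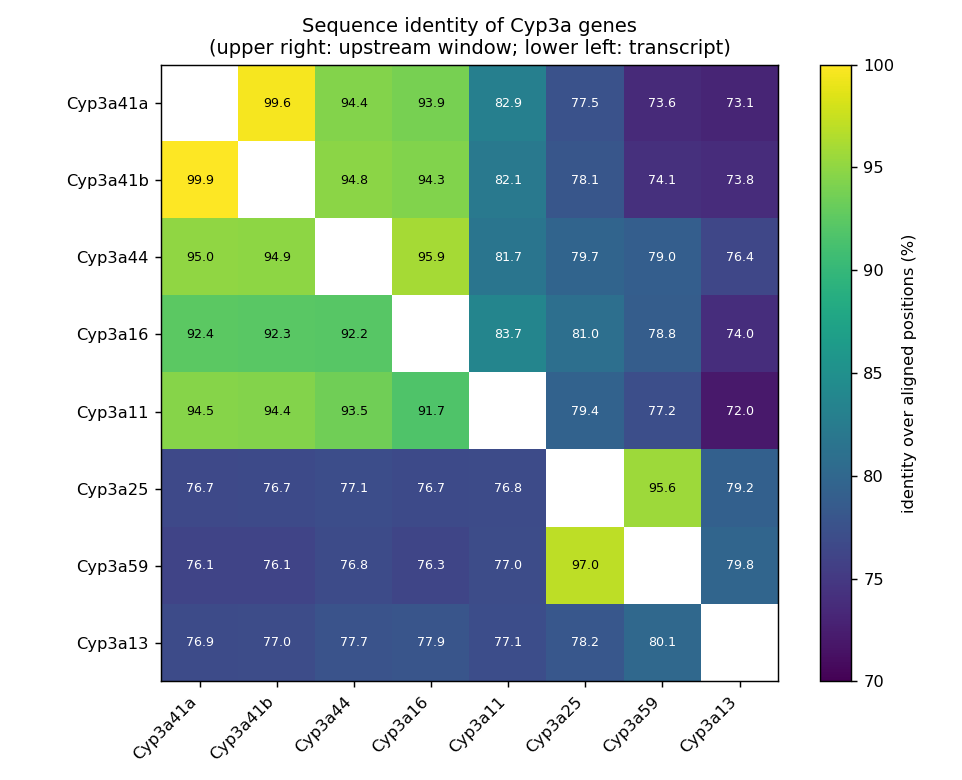
Identity in percent between each pair of Cyp3a genes over aligned positions, gaps left out, for the upstream windows (upper right) and the longest coding transcripts (lower left). Cyp3a41a, Cyp3a41b, Cyp3a44 and Cyp3a16 form a block above 92% in both parts of the plot, Cyp3a25 and Cyp3a59 form a pair, and Cyp3a11 is close to the first block over the transcript (91.7% to 94.5%) but less so upstream (81.7% to 83.7%).

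This likeness limits what the read counts can tell apart. Of all windows of 50 bases in a transcript, the share found in the transcripts of no other gene was 100% for Cyp3a13, 89.3% for Cyp3a16, 85.2% for Cyp3a11, 73.5% for Cyp3a44, 73.2% for Cyp3a25 and 72.0% for Cyp3a59. It was 1.39% for Cyp3a41a and 6.50% for Cyp3a41b, and with windows of 100 bases it was still 9.18% and 11.8%. Values given for Cyp3a41a may therefore hold reads of Cyp3a41b and the reverse, and how shared reads were counted is not given in the sources used here. If shared reads were dropped, the levels given for Cyp3a41a and Cyp3a41b are too low. The annotation places no gene on the opposite strand of a member, and a processed pseudogene inside Cyp3a13, Gm15502, overlaps none of its exons.

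The libraries held 5993619 to 15290835 reads. The 7 most abundant loci, mitochondrial ribosomal RNA included, took 41.8% to 69.4% of reads in GF and 5.39% to 21.9% in CV libraries. Outside these loci, GF libraries held 1834565 to 5303292 reads and CV libraries 6943462 to 14411498. These ranges did not overlap, so depth outside these loci cannot be told apart from condition. The 5 hepatocyte markers were high everywhere, with summed normalised read counts of 86387 to 550009. Mitochondrial ribosomal RNA took 9.36% to 16.4% of reads in GF libraries and 1.39% to 6.32% in CV libraries, so RNA composition moved with the condition. The library labelled CV male 3 had 0 reads from Y-linked genes and an Xist value of 2382, whereas the other 5 libraries labelled male had 796 to 1314 Y-linked reads. It went against its label. Member results and list counts that change with it are given both ways, and single list genes only in part. Leaving it out also leaves CV males with 2 libraries.

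The values are normalised read counts, that is, reads divided by the size factor of the library. A difference was called when the adjusted p of limma on log2(value + 1) was under 0.05, with Benjamini-Hochberg adjustment over the 11782 genes with a mean value of at least 10. Of the 8 members, 6 were tested, and Cyp3a16 and Cyp3a41b were below this mean. In bulk tissue, fewer hepatocytes and less RNA in each hepatocyte cannot be told apart.

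**Figure D2:**
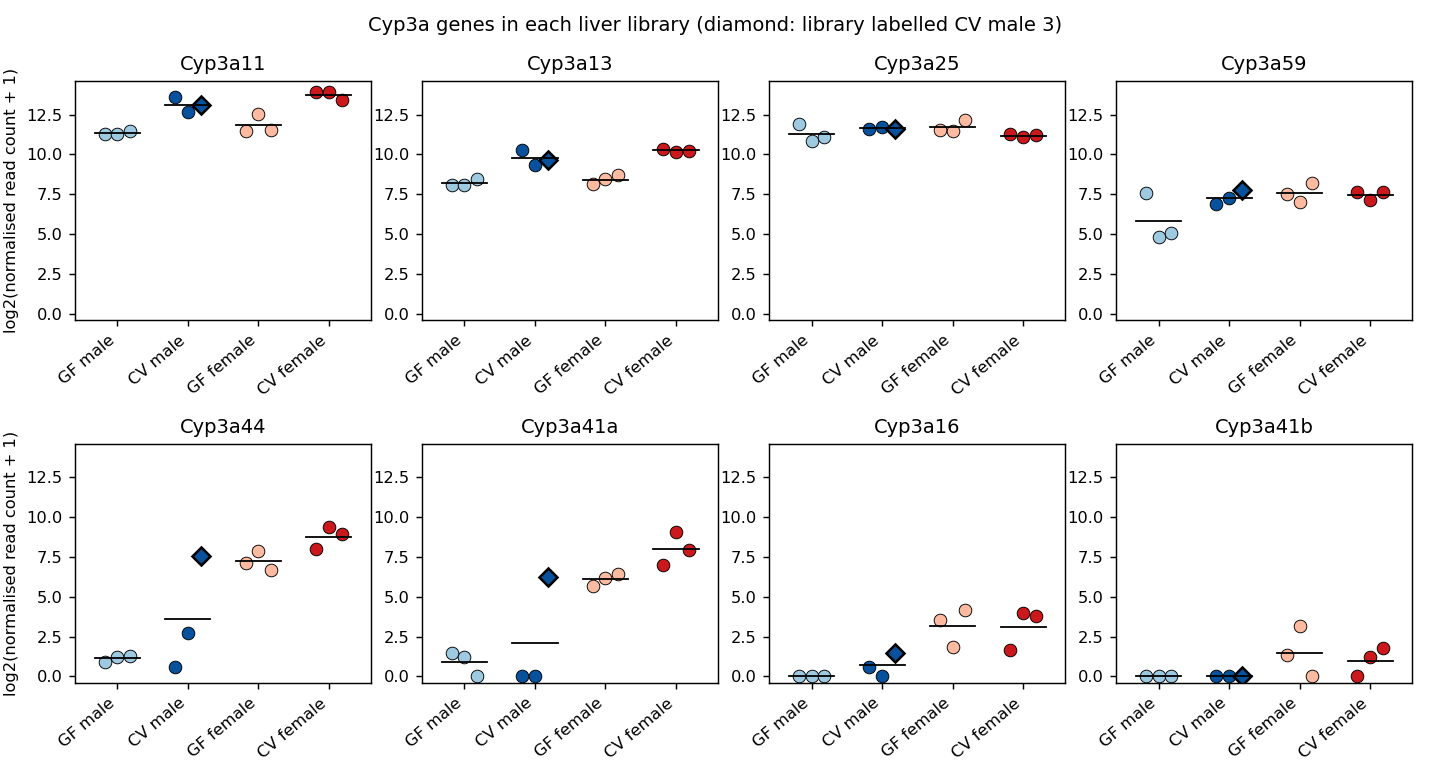
Level of each Cyp3a gene, as log2(normalised read count + 1), in every library by group, with a bar at the mean of 3 libraries and a diamond for the library labelled CV male 3. Cyp3a11 and Cyp3a13 lie higher in all CV libraries than in all GF libraries, Cyp3a25 overlaps between groups, and Cyp3a44 and Cyp3a41a are at or below 5.57 normalised reads in the libraries labelled male other than CV male 3.

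Cyp3a11 and Cyp3a13 were the members with the clearest difference between conditions, and both were more than 3-fold higher in CV livers. Over both sexes, 3 of the 6 tested members were higher in CV livers and 0 were lower. Of all genes tested, 61.1% changed in either direction and 32.3% were higher in CV livers, so a call by itself sets no member apart from the liver transcriptome. The split over all genes depended on the scaling, with 32.3% higher and 28.7% lower as deposited, 50.3% and 13.7% scaled to all reads, and 18.2% and 41.3% scaled to reads outside the 7 most abundant loci. The median log2 difference was 1.61 over the 6 tested members and 0.07 over all genes. Omitting the library labelled CV male 3 brought the median of the members to 0.80, against 0.08 over all genes, and left 3 members called.

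Cyp3a11, the inducible drug-metabolizing form, had normalised read counts of 2514, 2485 and 2785 in GF males and 2803, 5809 and 2935 in GF females. In CV males the counts were 12342, 6599 and 8697, and in CV females 15120.0, 15359.7 and 10794. All CV libraries lay above all GF libraries, and GF female 2 was the highest of the GF libraries. Group means were 2595 ± 165 in GF males, 3849 ± 1699 in GF females, 9213 ± 2906 in CV males and 13758 ± 2570 in CV females (SD, n = 3). The log2 difference between CV and GF livers was 1.84 ± 0.24 (SE, limma, adjusted p = 9.99e-06), a fold of 3.59 with a 95% interval of 2.52 to 5.10. In males it was 1.78 ± 0.34 (adjusted p = 0.00218) and in females 1.90 ± 0.34 (adjusted p = 0.000235). With the library labelled CV male 3 left out, the male difference was 1.80 ± 0.39 (adjusted p = 0.00523) and that over both sexes 1.85 ± 0.26 (adjusted p = 2.19e-05).

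Cyp3a13 lies outside the main cluster and shares no stretch of 50 bases with another member. Its normalised read counts were 265, 266 and 343 in GF males, 278, 343 and 420 in GF females, 1263, 638 and 789 in CV males, and 1313, 1129 and 1197 in CV females. As deposited, the lowest CV library was above the highest GF library. Relative to reads outside the most abundant loci the conditions overlapped, with GF female 3 above CV male 2. The log2 difference between CV and GF livers was 1.69 ± 0.19 (SE, limma, adjusted p = 2.83e-06), a fold of 3.24 with a 95% interval of 2.46 to 4.26. It was 1.57 ± 0.27 in males (adjusted p = 0.00125) and 1.82 ± 0.27 in females (adjusted p = 4.80e-05). Omitting CV male 3 gave 1.63 ± 0.31 in males (adjusted p = 0.00273) and 1.73 ± 0.20 over both sexes (adjusted p = 5.10e-06). CV male 2 was the lowest CV library for Cyp3a11 and for Cyp3a13.

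The size of these differences moved with the scaling, while their distance from the median of all genes moved little. Scaled to all reads, the Cyp3a11 difference was 2.40 on the log2 scale while the median of all genes was 0.62. Scaled to reads outside the 7 most abundant loci (mitochondrial ribosomal RNA, Lars2, Mir6236 and 3 predicted genes), it was 1.38 while the median was -0.38. Relative to the median of all genes, Cyp3a11 was higher by 1.77 with the deposited scaling, by 1.78 with all reads and by 1.76 outside the abundant loci. For Cyp3a13 the same values were 1.62, 1.63 and 1.61.

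Mitochondrial ribosomal RNA took a lower share of reads in CV libraries, where both genes were higher. The share was at most 1.81% in 4 CV libraries, 5.89% in CV male 2 and 6.32% in CV male 3, and at least 9.36% in GF libraries, so it did not overlap between conditions. CV male 2 and CV male 3 also had the lowest Cyp3a11 and Cyp3a13 values of the CV libraries. With this share as a covariate, the condition difference was 1.45 ± 0.85 for Cyp3a11 (SE, limma, adjusted p = 0.391) and 0.23 ± 0.55 for Cyp3a13 (adjusted p = 0.859), so neither call held, and under this covariate 0 of the 11782 genes were called. Without CV male 2 and CV male 3, the differences were 2.08 ± 0.26 and 1.97 ± 0.19. Hepatocyte markers moved in the same direction as Cyp3a11 and Cyp3a13, with 4 of 5 higher in CV livers over both sexes (median log2 difference 1.08). When CV male 3 was omitted, 3 of 5 were higher (median 1.00). The summed level of these markers was 86387 to 408491 in GF and 339641 to 550009 in CV livers. The part of RNA composition and of hepatocyte content in the Cyp3a differences was not tested beyond these values.

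**Figure D3:**
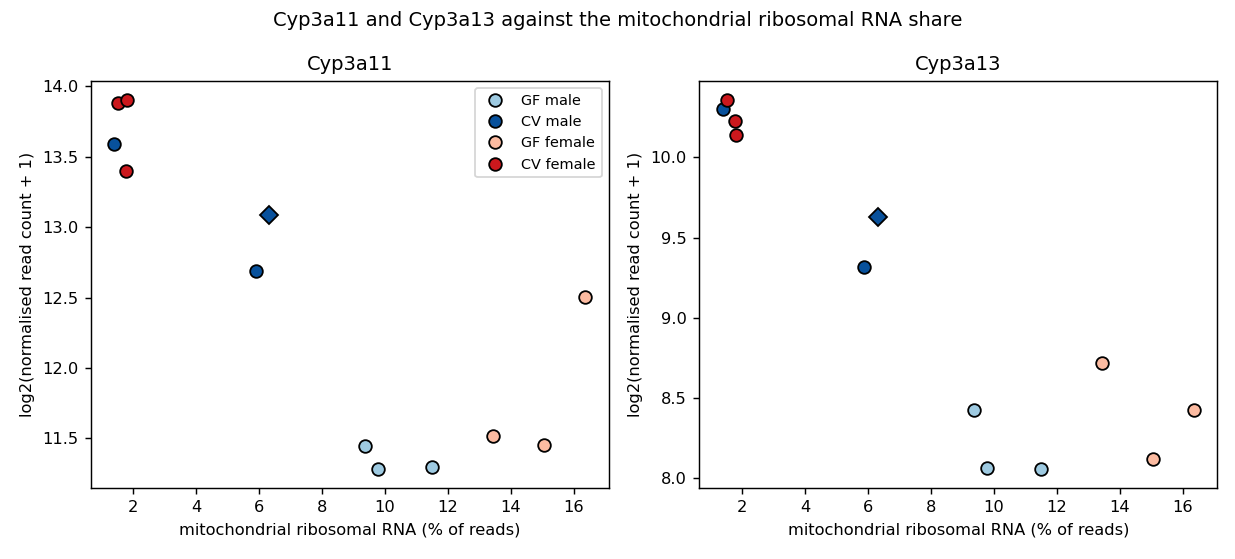
Level of Cyp3a11 (left) and Cyp3a13 (right), as log2(normalised read count + 1), against the percentage of reads from mitochondrial ribosomal RNA, 1 point for each of 12 libraries, coloured by group, with a diamond for CV male 3. The CV libraries lie at 1.39% to 6.32% and the GF libraries at 9.36% to 16.4%, so the share and the condition cannot be told apart in these libraries.

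Cyp3a25, an adult liver form expressed in both sexes, was close to Cyp3a11 in abundance in GF livers and did not pass the test between conditions. Its normalised read counts were 3830, 1801 and 2163 in GF males, 2907, 2774 and 4499 in GF females, 3038, 3322 and 3133 in CV males, and 2470, 2140.2 and 2352 in CV females. The groups overlapped, and the GF libraries were more spread than the CV libraries. Over both sexes the log2 difference was -0.08 ± 0.21 (SE, limma, adjusted p = 0.766), with a 95% interval of -0.52 to 0.37. It was 0.36 ± 0.30 in males (adjusted p = 0.377) and -0.51 ± 0.30 in females (adjusted p = 0.152). Scaled to reads outside the abundant loci, the female difference was called, at -1.14 ± 0.35 (adjusted p = 0.0120), where the median of all genes in females was -0.53.

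Cyp3a59 is the closest relative of Cyp3a25 and was far less abundant. Of its windows of 50 bases 24.7% were also in Cyp3a25, so reads of Cyp3a25 may be among those given for Cyp3a59. Its normalised read counts were 189, 26.6 and 32.6 in GF males, 179.6, 128 and 295 in GF females, 116, 149 and 217 in CV males, and 198, 139 and 199.9 in CV females. GF male 1 lay with the females and the CV libraries, while GF male 2 and GF male 3 were the lowest. Over both sexes the log2 difference between CV and GF livers was 0.69 ± 0.38 (SE, limma, adjusted p = 0.121). In males it was 1.48 ± 0.53 (adjusted p = 0.0456), and leaving out the library labelled CV male 3 gave 1.24 ± 0.58 (adjusted p = 0.125). In females it was -0.10 ± 0.53 (adjusted p = 0.886). The male call was lost on leaving out any 1 of 9 of the 12 libraries, with adjusted p-values of 0.0564 to 0.185. Leaving out GF male 1 instead gave calls for Cyp3a59 between conditions, at 1.13 over both sexes (adjusted p = 0.000982), and between the sexes, at -1.41 over both conditions (adjusted p = 0.00631) and -2.64 in GF livers (adjusted p = 0.00260).

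In males, 3 of the 6 tested members were higher in CV livers, namely Cyp3a11, Cyp3a13 and Cyp3a59, against 29.5% of all genes changed and 14.1% higher. When the library labelled CV male 3 was left out, 2 members were higher, against 12.1% of all genes. In females, Cyp3a11 and Cyp3a13 were higher, against 55.8% of all genes changed and 29.8% higher. The female count became 4 on leaving out the library labelled CV male 3, against 30.0% of all genes, since this library enters the estimate of spread that the groups share.

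Cyp3a44 and Cyp3a41a were nearly confined to the libraries labelled female, in both conditions. Cyp3a44 had normalised read counts of 0.895, 1.33 and 1.42 in GF males, from 1 read each. GF females had 139, 234 and 99.7, and CV females had 256, 660 and 488. CV male 1 had 0.520 (1 read) and CV male 2 had 5.57 (7 reads). The library labelled CV male 3 had 191 (210 reads), within the range of the GF females. Pooled over GF libraries, the female to male ratio of read rates was 128, with a 95% exact interval of 43.1 to 623 (232 against 3 reads). Pooled over CV libraries other than CV male 3 it was 173, with an interval of 87.5 to 400 (2401 against 8 reads). These intervals cover counting error only.

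Cyp3a41a had normalised read counts of 1.79, 1.33 and 0 in GF males and 49.8, 71.8 and 84.3 in GF females. CV females had 124, 531 and 238. CV male 1 and CV male 2 had 0 reads, and the library labelled CV male 3 had 74.5 (82 reads). The female to male ratio was 57.2 in GF libraries, with an interval of 19.0 to 282 (104 against 3 reads). In CV libraries other than CV male 3, Cyp3a41a was at least 284-fold higher in females (1481 against 0 reads, with a floor of 3 reads over the group).

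Over both conditions, Cyp3a44 differed by -5.61 ± 0.77 (male minus female, log2 scale, SE, limma, adjusted p = 0.000836) and Cyp3a41a by -5.54 ± 0.81 (adjusted p = 0.00143). The fitted values of genes near 0 depend on the pseudocount and are no bound. The 2 genes were the called members, against 1.16% of all genes in either direction and 0.433% lower in males. Omitting the library labelled CV male 3 gave differences of -6.59 ± 0.37 (adjusted p = 1.90e-09) and -6.58 ± 0.40 (adjusted p = 5.36e-09), against 0.662% of all genes lower in males. In GF livers, Cyp3a44 differed by -6.08 ± 1.08 (adjusted p = 0.00798) and Cyp3a41a by -5.19 ± 1.14 (adjusted p = 0.0321), against 1.63% of all genes in either direction and 0.399% lower. The GF call of Cyp3a41a was lost on leaving out GF male 2, GF male 3, GF female 1, GF female 3 or CV female 3 (adjusted p = 0.0512 to 0.135). It was also lost with DESeq2 (adjusted p = 0.0707), edgeR (0.0877 and 0.0898) and voom (0.0638) on whole reads, with no filter beyond 1 read (0.0617), without a variance trend (0.0770), at a threshold of 0.01 and with the mitochondrial ribosomal RNA covariate (0.599), and held in 18 of 31 settings. The GF call of Cyp3a44 held in 29 of 31 settings and was lost with voom (adjusted p = 0.0638) and with the covariate (adjusted p = 0.495). In CV livers, 0 members passed the limma test with all libraries, although the unadjusted p was 0.000204 for Cyp3a44 and 8.70e-05 for Cyp3a41a. The adjusted p was 0.142 for Cyp3a44 and 0.0855 for Cyp3a41a, and 0.0594% of all genes were called. Leaving out the library labelled CV male 3 gave CV differences of -7.11 ± 0.55 (adjusted p = 3.20e-07) and -7.97 ± 0.60 (adjusted p = 2.16e-07), against 0.28% of all genes lower in males.

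The condition difference of the female-limited members rested on which libraries were used. Over both sexes, Cyp3a44 was higher in CV livers by 2.02 ± 0.77 (log2, SE, limma, adjusted p = 0.0307), a call that also held without the library labelled CV male 3 at 1.04 ± 0.37 (adjusted p = 0.0241). It did not hold without both CV male 2 and CV male 3 (0.51 ± 0.34, adjusted p = 0.213), or scaled to reads outside the abundant loci (1.63 ± 0.77, adjusted p = 0.0814). It was also lost on leaving out GF male 1, GF female 1, GF female 3, CV female 2 or CV female 3, with adjusted p-values of 0.0549 to 0.0664. With no filter beyond 1 read the adjusted p was 0.0640, with voom 0.129, without a variance trend 0.0562 and with the covariate 0.156. The call was also lost at a threshold of 0.01 and held in 19 of 31 settings. In males the Cyp3a44 difference was 2.50 ± 1.08 (adjusted p = 0.0920), and without CV male 3 it was 0.52 ± 0.55 (adjusted p = 0.510). Leaving out CV male 1 instead gave 4.01 in males (adjusted p = 0.0126). Cyp3a41a was at 1.53 ± 0.81 over both sexes (adjusted p = 0.111), and at 2.05 on leaving out CV male 1 (adjusted p = 0.0423) or CV male 2 (adjusted p = 0.0324). Leaving out the library labelled CV male 3 gave 0.49 ± 0.40 (adjusted p = 0.305). The difference was called in 7 of 31 settings, which included a pseudocount of 5 (adjusted p = 0.0264), scaling to all reads (0.0320), edgeR (0.00754 and 0.00882) and DESeq2 (0.0278). In males it was at 1.18 ± 1.14 (adjusted p = 0.455), and without CV male 3 the direction turned, to -0.90 ± 0.60 (adjusted p = 0.282).

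In females, every CV library was above every GF library for both genes by the deposited values. Relative to reads outside the most abundant loci, GF and CV females overlapped for both genes. The means of Cyp3a44 were 158 ± 69.1 in GF and 468 ± 203 in CV females, and those of Cyp3a41a 68.7 ± 17.5 and 298 ± 210 (SD, n = 3). The log2 difference was 1.55 ± 1.08 for Cyp3a44 (SE, limma, adjusted p = 0.234) and 1.89 ± 1.14 for Cyp3a41a (adjusted p = 0.171). On leaving out the library labelled CV male 3, these differences stayed as they were, and their errors fell to 0.50 (adjusted p = 0.0141) and 0.54 (adjusted p = 0.00714).

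The remaining pair was near the floor. Cyp3a16, the perinatal form, had 0 reads in the 3 GF males and 7, 1 and 9 reads in GF females. It had 1, 0 and 2 reads in CV males and 5, 22 and 21 reads in CV females. In GF livers it was at least 9.35-fold higher in females (17 against 0 reads). In CV livers other than CV male 3 the ratio was 27.6, with a 95% exact interval of 4.72 to 1113 (48 against 1 read). When the minimum mean value was lowered to 1, so that Cyp3a16 entered the test, its sex difference was called over both conditions at -2.81 ± 0.53 (male minus female, log2, limma, adjusted p = 0.00904) and in GF livers at -3.20 ± 0.74 (adjusted p = 0.0399). With no filter beyond 1 read the adjusted p was 0.0239 over both conditions and 0.0639 in GF livers. Cyp3a41b had 0 reads in the 6 libraries labelled male, 1, 3 and 0 reads in GF females, and 0, 2 and 4 reads in CV females. No fold is given for Cyp3a41b, since its reads are few and its transcript is all but identical to that of Cyp3a41a.

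The members expressed in both sexes did not pass the test for a sex difference. Over both conditions, Cyp3a11 differed by -0.55 ± 0.24 (male minus female, log2, SE, limma, adjusted p = 0.403), with a 95% interval of -1.05 to -0.04. Cyp3a13 differed by -0.37 ± 0.19 (adjusted p = 0.497) and Cyp3a59 by -0.97 ± 0.38 (adjusted p = 0.335). Cyp3a25 differed by 0.01 ± 0.21 (adjusted p = 0.992), with an interval of -0.44 to 0.46. Omitting CV male 3, the differences were -0.54, -0.34, -1.09 and 0.01, with adjusted p-values of 0.276 to 0.994.

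To compare the condition difference between the sexes, the interaction was tested directly. It was called for 0 of the 6 members and 0.0% of all genes by limma, with 1382 genes at an unadjusted p under 0.05. The male minus female difference of the effects was -0.12 ± 0.48 for Cyp3a11 and -0.25 ± 0.38 for Cyp3a13 (log2, SE). It was 0.88 ± 0.42 for Cyp3a25 (adjusted p = 0.430) and 1.58 ± 0.75 for Cyp3a59 (adjusted p = 0.426). When the library labelled CV male 3 was omitted it was -2.79 ± 0.81 for Cyp3a41a (adjusted p = 0.620), and 0 members were called.

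**Figure D4:**
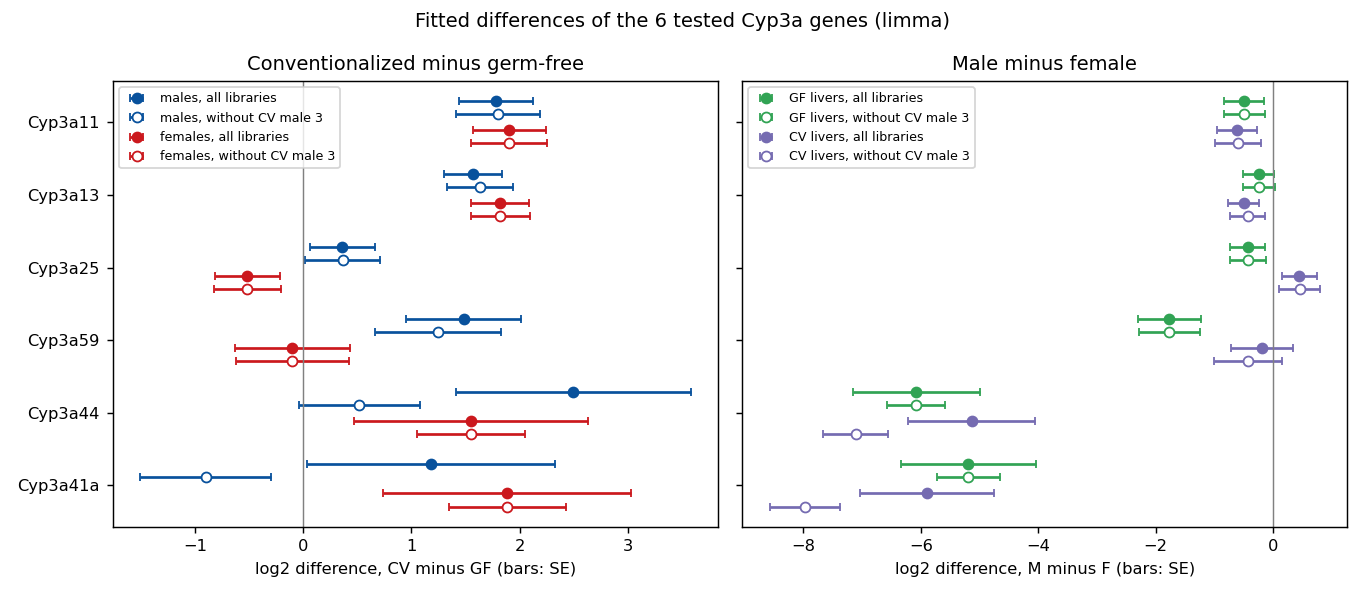
Fitted log2 differences of the 6 tested Cyp3a genes with bars of 1 SE, CV minus GF in each labelled sex (left) and male minus female in each condition (right), from limma with all libraries (filled) and without the library labelled CV male 3 (open). Cyp3a11 and Cyp3a13 lie between 1.57 and 1.90 on the left in both sexes, and Cyp3a44 and Cyp3a41a lie below -5 on the right in both conditions.

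To compare levels between genes, the normalised read counts were divided by transcript length. The sum over the 8 members was 2547 ± 568 per kb in GF males, 3678 ± 662 in GF females, 5943 ± 1257 in CV males and 7919 ± 1099 in CV females (SD, n = 3). In GF livers Cyp3a25 and Cyp3a11 led the order and overlapped, with 900.3 to 2249 and 1060.0 to 2478 per kb over 6 libraries. In CV livers Cyp3a11 alone led, with 2815 to 6553 per kb against 1070.1 to 1661 for Cyp3a25, and these ranges did not overlap. Cyp3a13 was the third in CV livers at 216 to 444 per kb. In GF livers Cyp3a13 (89.7 to 142 per kb) and Cyp3a59 (13.4 to 148 per kb) overlapped, and in GF females Cyp3a44 (50.8 to 119 per kb) overlapped with both.

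Within the summed level, the Cyp3a11 share was 44.9% in GF males, 43.9% in GF females, 65.2% in CV males and 73.8% in CV females. Over single libraries it was 32.2% to 58.9% in GF and 59.0% to 76.6% in CV livers. The Cyp3a25 share was 48.2% ± 10.0 in GF and 21.2% ± 8.4 in CV livers (SD, n = 6). Within CV livers it was 20.9% to 34.8% in libraries labelled male and 12.3% to 17.7% in females. Cyp3a44 and Cyp3a41a took 1.55% to 3.87% and 0.715% to 2.97% in CV females, and 1.30% to 2.84% and 0.824% to 1.05% in GF females. These shares do not depend on the scaling of the libraries, but those of Cyp3a41a are too low if shared reads were dropped.

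**Figure D5:**
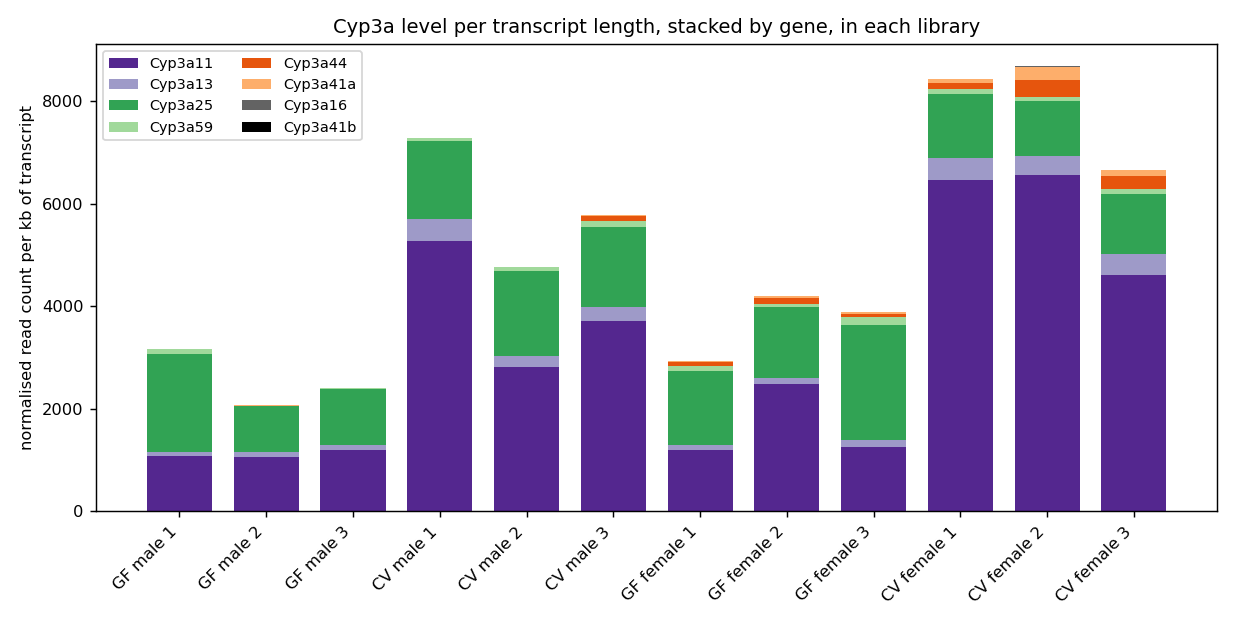
Normalised read count per kb of transcript in each of the 12 libraries, stacked by Cyp3a gene. The bars reach 2065 to 4205 in GF and 4770 to 8678 in CV libraries, the difference lies mostly in Cyp3a11, and the orange segments of Cyp3a44 and Cyp3a41a are visible in female libraries and in the library labelled CV male 3.

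To place the members in their pathway, lists of genes with known roles were read from the same test. Among 19 tested xenobiotic receptors and partners, 5 were higher and 7 lower in CV livers (median log2 difference -0.05, against 0.07 over all genes), where 32.3% of all genes were higher and 28.7% lower. Omitting CV male 3 gave 5 higher and 6 lower. Nr1i2, which encodes PXR, was lower by limma (log2 difference -0.59 ± 0.17, adjusted p = 0.00624). Its normalised read counts were 270.2 to 562 in GF and 215 to 371 in CV libraries, which overlapped. Nr1i3, which encodes CAR, was at -0.28 ± 0.26 (adjusted p = 0.364). Rxra, the partner of both, was higher by 0.54 (adjusted p = 0.0128). The called genes with the largest changes were the coactivator Ppargc1a at -2.36, the hepatocyte factor Cebpa at 1.55, the corepressor Ncor1 at -0.98 and the receptor Ahr at -0.90.

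Of the electron transfer and heme genes, 12 of 15 tested were higher and 2 lower in CV livers, with a median of 1.14, against 32.3% of all genes higher, 28.7% lower and a median of 0.07. The counts were 12 and 2 also when CV male 3 was omitted. Por, the electron donor of all microsomal P450 enzymes, had normalised read counts of 1465 to 2850.3 in GF and 2701 to 6880.1 in CV libraries, and differed by 1.15 ± 0.20 (limma, adjusted p = 0.000151). Urod of heme synthesis was higher by 1.73, the heme-binding Pgrmc1 by 1.51, Cpox of heme synthesis by 1.34 and Cyb5a, which encodes cytochrome b5, by 1.31. Alas1, the first and rate-limiting enzyme of heme synthesis, was at -0.52 ± 0.31 (adjusted p = 0.146).

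Of 29 tested PXR and CAR target genes outside the Cyp3a family, 18 were higher and 1 was lower in CV livers, with a median of 0.93, against 32.3% and 28.7% of all genes and a median of 0.07. Omitting CV male 3 gave 18 higher and 2 lower, with a median of 0.79. The bilirubin and drug conjugating enzymes Ugt1a9 and Ugt1a1 differed by 2.41 and 2.22. Normalised read counts of Ugt1a9 were 6.04 to 18.6 in GF and 18.2 to 215 in CV libraries, which overlapped. In males the Ugt1a9 difference was 1.77 (limma, adjusted p = 0.0638). Cyp2b10, the classical CAR target, differed by 2.34 ± 0.30 (limma, adjusted p = 8.07e-06), with 60.0 to 254 in GF and 269.5 to 1144 in CV libraries. These ranges did not overlap as deposited, but did relative to reads outside the most abundant loci. The carboxylesterase Ces2a differed by 1.43. The export pump Abcc2 was the 1 gene that was lower (adjusted p = 0.000145). With the mitochondrial ribosomal RNA share as a covariate, no gene of these lists was called between conditions.

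Genes of steroid and bile acid metabolism, whose substrates overlap with those of CYP3A enzymes, were higher in 7 and lower in 1 of 12 tested, with a median of 0.98, against 32.3% and 28.7% of all genes and a median of 0.07. Omitting CV male 3 gave 8 and 1, with a median of 1.05. Cyp8b1, which sets the hydroxylation pattern of bile acids, differed by 2.37, the steroid reductase Akr1c6 by 1.80 and Cyp17a1 by 1.53. The Cyp17a1 difference fell to 0.97 (adjusted p = 0.0128) when CV male 3 was omitted, a library with 790 against 65.6 and 87.5 in CV male 1 and CV male 2. The steroid dehydrogenase Hsd3b2 was the 1 gene that was lower, by -1.11.

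Among 16 regulators of growth hormone signalling and sex bias, 2 were higher and 5 lower in CV livers (median -0.07), against 32.3% and 28.7% of all genes. The called genes with the largest changes were the feedback inhibitor Socs2 at -2.14, the factor Onecut1 at -1.76, the IGF carrier Igfals at 1.61 and the repressor Bcl6 at -1.14, or -0.76 and no longer called when CV male 3 was omitted (adjusted p = 0.0675). Between the sexes, 0 were higher and 3 lower in males. These were Cux2, a female-specific transcription factor, at -5.01 ± 0.66 (limma, adjusted p = 0.000665), Trim24 at -1.45 and Esr1 at -1.27. Between conditions, Cux2 differed by -1.16 (limma, adjusted p = 0.136), or by -1.99 and called when CV male 3 was omitted (adjusted p = 0.00013). Cux2 had normalised read counts of 3.99 to 7.16 in GF males and 374 to 533 in GF females. It had 0 and 3.18 in CV male 1 and CV male 2, 62.7 in the library labelled CV male 3, and 60.6 to 128 in CV females. For Cux2, the library labelled CV male 3 lay within the range of the CV females and below every GF female. For Cyp3a44 it lay within the range of the GF females and below every CV female.

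In the other lists, the sex difference was called for 1 higher and 2 lower in males of 29 PXR and CAR targets. Of 12 steroid genes, 3 were higher and 1 was lower in males. Of all genes, 0.73% were higher and 0.433% lower in males. Of the PXR and CAR targets, Cyp2b9 (-5.88) and Slco1a4 (-1.74) were lower in males and Aldh1a1 (1.28) was higher. Of the steroid genes, Hsd3b5 (3.58), Cyp7b1 (3.46) and Srd5a1 (1.26) were higher in males and Cyp17a1 (-2.06) was lower. Omitting CV male 3 brought the counts to 2 higher and 4 lower of 29 PXR and CAR targets and to 5 higher and 1 lower of 12 steroid genes, against 1.06% and 0.662% of all genes. Over both conditions, limma called 0 genes between the sexes in the receptor list and the electron transfer list, with or without this library. In GF livers alone, Urod of the latter was higher in males by 0.96 (limma, adjusted p = 0.0472, or 0.0466 without this library).

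The genes most like Cyp3a11 over the 12 libraries, by the root mean squared difference of centred log2 values, were Glrx3 (0.249), Samm50 (0.251), Tcn2 (0.261), Serpina3m (0.262) and Emc10 (0.271). All 5 were higher in CV livers, by 1.77, 1.78, 1.48, 1.79 and 1.96 on the log2 scale. This follows from choosing them for likeness to Cyp3a11 over the same libraries and is no separate result. Genes most like Cyp3a44 included Sult3a1 (0.900), Slc22a26 (0.954), Cyp2a4 (1.17) and Hao2 (1.28). These 4 were lower in males by limma, with log2 differences of -5.41, -4.89, -5.62 and -4.03, and all 12 libraries, CV male 3 included, entered the measure. Their direction too follows from the choice by likeness.

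Markers of other cell types were read for the tissue label. Kupffer cell markers were higher in 3 of 5 (2 of 5 when CV male 3 was omitted) and blood markers lower in 3 of 4 in CV livers, and both tested lymphocyte markers were lower. Bile duct markers were called in 0 of 5 by limma, and 1 of 5 sinusoidal endothelium markers was lower. Of 5 enterocyte markers, Fabp2 and Apoa4 were tested and higher. The defining gene Sis was at 0 in all libraries, Vil1 was at 0 to 3.99, and the summed level was 174 to 866 in GF and 1952 to 4956 in CV libraries. The 1 tested pancreas marker was higher in CV livers, with a summed list level of 34.7 to 291 in GF and 167 to 355 in CV libraries. Between the sexes, 0 of 5 Kupffer cell markers were called with all libraries and 3 were lower in males when CV male 3 was omitted. The part of these cell types in the Cyp3a values was not tested.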

How the data were processed

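Liver RNA was sequenced in 12 libraries in 4 groups of 3, taken from the sample titles, and the labels name a stranded mRNA kit. The deposited values are a normalised signal for each gene: the authors counted reads (HTSeq 0.6.1p1 and DESeq2 on build GRCm38 appear in the submitters' processing notes) and divided the counts of each library by 1 size factor. The aligner and annotation are not given in the sources used here. All values were whole multiples of 1 read within 0.01 reads (100% in each library), so whole reads were recovered, 5993619 to 15290835 for each library. The expression table named 41128 genes, and GENCODE release 21 gave coordinates for 40254 of the identifiers (97.9%). Genes of mean value of at least 10 (11782) were tested with limma 3.58.1 in R 4.3.3 on log2(value + 1), with 1 mean for each group, a variance trend and Benjamini-Hochberg adjustment at 0.05. This log scale understates changes of low genes. Fold intervals are 95% limits from limma, and ratios of pooled reads have exact binomial intervals, covering counting error only. A count of 0 allows up to 3 reads.

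The members and gene lists were chosen with earlier results of these data known. Named genes were the 8 members, from each list at most 4 called genes of largest change in a comparison plus genes whose role is explained, and the 5 genes most like Cyp3a11 and Cyp3a44. Of these, 1 is not reported here. Upstream sequences came from RefSeq (8 of 8 members matched by symbol) and were aligned with Biopython 1.88. The fits were tested on simulated data. Alternatives were other pseudocounts, filters and scalings, edgeR 4.0.16, DESeq2 1.42.0 and voom on whole reads, a mitochondrial ribosomal RNA covariate, removal of length and GC trends, a replicate block, a threshold of 0.01 and each library left out in turn. Chosen after seeing the data were the omission of CV male 2 with CV male 3, and a block within CV libraries. Deviations of same-numbered CV males and females correlated at 0.118 to 0.193 in 3 pairs, and those of differently numbered ones at -0.166 to 0.00970. Elsewhere a differently numbered pair, GF male 1 with GF female 3, reached 0.386. Whether the CV libraries were paired is not settled by these values, and no label states a shared cage or litter.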

Additional observations from a re-analysis of the deposited data

Results flagged for a closer look

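Values were compared within sets of 6 libraries, and a set was singled out where the gap of its highest or lowest library to the next, divided by the whole range, was above the 95% critical value of Dixon's test. Of 31 sets tested 3 were singled out. Chance gives about 1 in 20 for separate sets that are each 1 uniform sample. The sets here pool 2 groups and share libraries, so this rate does not apply directly. For Cyp3a11 the highest of the 6 GF libraries was GF female 2, with a ratio of 0.804. For Cyp3a41a and Cyp3a44 the highest of the 6 libraries labelled male was CV male 3, with ratios of 0.7626 and 0.6976.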

How the results depend on the processing

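Across 31 settings, the calls of Cyp3a11 and Cyp3a13 between conditions, over both sexes and in each sex, were lost only with the mitochondrial ribosomal RNA share as a covariate. Of the alternative values of single members, 1134 kept direction and side of the threshold, 53 lost the call, 34 gained it and 45 turned direction. The cause of each change was not tested. Counts of members called that moved by over 1.5 times were these, and other counts moved by at most 1 member. Between conditions over both sexes the count was 5 scaled to all reads, and 0 with the covariate, which also gave 0 in males and 0 in females. In females it was 4 without CV male 2 and CV male 3, and 2 to 4 with 1 library left out. Between the sexes in GF livers it was 1 without a filter beyond 1 read, with edgeR under both factors, with DESeq2, without a variance trend and at a threshold of 0.01, 0 with voom and with the covariate, and 1 to 3 with 1 library left out. In CV livers it was 1 with a pseudocount of 5, 2 scaled to all reads, with voom, with the covariate and without CV male 2 and CV male 3, and 0 to 2 with 1 library left out.

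Turned directions were uncalled log2 differences, except that of Cyp3a13 in females. Scaled to all reads, Cyp3a25 was at 0.4842 over both sexes and 0.2951 in females between conditions, Cyp3a59 at 0.7058 in females, and Cyp3a13 at 0.1026 between GF sexes. Outside the abundant loci, interactions were 0.1975 for Cyp3a11 and 0.06649 for Cyp3a13, and the Cyp3a25 sex difference was -0.147. The latter was also -0.005228 with TMM, -0.008595 with voom and -0.203 without length and GC trends. The Cyp3a11 interaction was 0.001333 with edgeR and TMM and 0.01722 with DESeq2. The Cyp3a41a interaction was 2.089 and 2.061 with edgeR and 2.454 with DESeq2. With the covariate, Cyp3a13 was at -0.2346 in females, Cyp3a25 at 0.07138 over both sexes and Cyp3a59 at 2.082 in females, and interactions were 0.1921 for Cyp3a11, 0.9224 for Cyp3a13 and -4.932 for Cyp3a44. Without CV male 2 and CV male 3, Cyp3a44 and Cyp3a41a were at -0.5344 and -0.9005 in males, interactions were 0.3474, 0.3025 and -2.084 for Cyp3a11, Cyp3a13 and Cyp3a44, and sex differences were -0.01817 for Cyp3a25 and 0.06134 for Cyp3a13 in CV livers.

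With 1 library left out, interactions ranged from -0.4612 to 0.09499 for Cyp3a11, -2.786 to 0.3333 for Cyp3a41a and -1.029 to 2.461 for Cyp3a44. Cyp3a25 ranged from -0.1895 to 0.08259 between conditions and from -0.1487 to 0.1234 between sexes, Cyp3a41a from -0.9005 to 2.219 between conditions in males, and Cyp3a59 from -0.3811 to 0.2202 between conditions in females and from -0.4203 to 0.02867 between CV sexes. The replicate block changed no count, with 3, 3 and 2 members called between conditions over both sexes, in males and in females, 0 for the interaction, and 2, 2 and 0 between the sexes. Within CV libraries alone it also called 0 members, with an adjusted p of 0.0794 for Cyp3a44 and Cyp3a41a. Deviations of same-numbered libraries correlated at 0.0593 to 0.403 between GF males and females and at -0.228 to -0.0935 between GF and CV males. Groups of 3 and counts under 10 reads in males limit the precision of Cyp3a16 and Cyp3a41b.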

Other observations

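Cyp3a57, a further gene of the cluster that is not among the 8 described above, had 0 reads in the 6 GF libraries. In CV libraries it had 0, 1 and 1 reads in males and 2, 3 and 0 reads in females.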
